A study of Homo sapiens with 3 samples.

Results

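Glycolysis, the pentose phosphate pathway and the citric acid cycle were followed through 47 genes of central carbon metabolism in EBC-1 cells, a standard cell line from a human squamous cell carcinoma of the lung. The genes were found by their symbols in a deposited expression table of 13479 gene entries. Entries were found for 46 of the 47, and ALDOC, an aldolase gene, was not analysed here. All 46 reached a mean of 5 CPM, the tags of a gene scaled to a common library total, over the libraries, as did 10788 of all entries. The assay, CAGE (cap analysis of gene expression), reads a short tag at the capped 5′ end of RNA molecules, so a level does not depend on transcript length.

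The 3 libraries formed 3 groups of 1 library each. The cells had been electroporated with 600 pmol of RAB11A siRNA 1, of RAB11A siRNA 2 or of a negative control siRNA, and the labels give 72 h after plating for all. RAB11A is a small GTPase of the recycling endosome, and the labels name no other genetic change or drug. With 1 library per group no difference below has a replicate check, and intervals and standard errors cover the counting of tags only. Both siRNA libraries were set against the same control library, so their ratios share its error. In such bulk libraries, fewer cells using a gene and less RNA per cell cannot be told apart.

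Glycolysis splits glucose into pyruvate and yields ATP, and lactate dehydrogenase turns pyruvate into lactate, a route that many tumour lines use heavily even with oxygen present. The pentose phosphate pathway draws on glucose 6-phosphate to make NADPH and ribose phosphate. Pyruvate that enters the mitochondrion becomes acetyl-CoA and is oxidised in the citric acid cycle, while transaminases and carboxylases exchange carbon between the cycle and amino acids.

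RAB11A itself stood at 7.48 CPM with siRNA 1, 22.7 CPM with siRNA 2 and 135 CPM in the control library, which is 5.53% and 16.8% of control. Of 12 squamous lineage markers 3 had an entry (SFN, PERP and S100A2), and TP63, KRT5, KRT14 and SOX2 matched none. Of 6 epithelial markers 5 had an entry, with summed levels of 1065, 924 and 887 CPM for siRNA 1, siRNA 2 and control. MET, the receptor tyrosine kinase for which the line is known, stood at 91.8, 93.1 and 90.0 CPM in the same order of libraries. No marker of endothelium or alveolar cells among 4 each had an entry, 2 of 5 fibroblast markers had one at up to 2.28 CPM, and of 4 leukocyte markers CD68 had one, at 21.1 CPM with siRNA 1, 31.4 CPM with siRNA 2 and 45.2 CPM in control. The part of these markers in the results was not tested.

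Most of the 46 genes differed little between the libraries, as did most of all genes, and the large differences lay in a few enzymes. Within 1.3-fold of control lay 89.1% of the 46 with siRNA 1, against 84.0% of all genes. With siRNA 2 these shares were 95.7% and 88.4%. IDH1, the cytosolic NADP-linked isocitrate dehydrogenase, and GOT1, the cytosolic aspartate aminotransferase, were lower in both siRNA libraries. TKT, the transketolase of the pentose phosphate pathway, was lower past the 1.3-fold threshold with siRNA 1. PGAM1, a phosphoglycerate mutase, and PFKM, a phosphofructokinase, were higher past it with siRNA 1. Lactate dehydrogenase A (LDHA) was higher with siRNA 1 by almost the same factor.

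CAGE tags mark transcript starts, so sequences before an annotated start are shown. They are those of IDH1, GOT1 and TKT for the genes that were lower, and of PGAM1 and LDHA for genes higher with siRNA 1. Each is the 250 bases 5′ of the most upstream RefSeq start, from GRCh38.p14, a later build than the hg19 of the expression values. Capitals mark exact matches, on either strand, to the HIF core (ACGTG or GCGTG), the antioxidant response element of NRF2 (ARE, TGACNNNGC), the CARE motif of ATF4 and CHOP (TGATGNAA) and the E-box (CACGTG, which contains the HIF core on both strands). The windows lie at chr2:208255072-208255321, minus strand for IDH1, chr10:99430625-99430874, minus strand for GOT1, chr3:53256023-53256272, minus strand for TKT, chr10:97427568-97427817, plus strand for PGAM1 and chr11:18394313-18394562, plus strand for LDHA.
IDH1: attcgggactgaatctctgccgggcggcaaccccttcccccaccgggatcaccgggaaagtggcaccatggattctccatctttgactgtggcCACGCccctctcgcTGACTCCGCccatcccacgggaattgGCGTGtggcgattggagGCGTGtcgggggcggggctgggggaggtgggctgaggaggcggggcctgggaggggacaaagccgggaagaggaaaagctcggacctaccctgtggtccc
GOT1: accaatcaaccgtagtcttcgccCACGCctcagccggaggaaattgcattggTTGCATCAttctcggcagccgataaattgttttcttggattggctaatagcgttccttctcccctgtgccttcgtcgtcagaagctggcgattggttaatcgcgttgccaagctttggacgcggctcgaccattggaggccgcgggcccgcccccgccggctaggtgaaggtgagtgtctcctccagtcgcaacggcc
TKT: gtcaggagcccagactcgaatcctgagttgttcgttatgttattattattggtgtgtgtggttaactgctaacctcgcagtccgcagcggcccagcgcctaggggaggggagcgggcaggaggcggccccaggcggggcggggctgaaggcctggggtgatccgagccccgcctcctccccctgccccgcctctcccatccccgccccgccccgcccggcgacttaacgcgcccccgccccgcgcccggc
PGAM1: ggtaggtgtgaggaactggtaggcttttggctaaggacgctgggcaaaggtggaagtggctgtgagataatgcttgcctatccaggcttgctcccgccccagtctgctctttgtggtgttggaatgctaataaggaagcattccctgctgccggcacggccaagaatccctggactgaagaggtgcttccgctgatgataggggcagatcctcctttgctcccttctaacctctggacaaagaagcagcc
LDHA: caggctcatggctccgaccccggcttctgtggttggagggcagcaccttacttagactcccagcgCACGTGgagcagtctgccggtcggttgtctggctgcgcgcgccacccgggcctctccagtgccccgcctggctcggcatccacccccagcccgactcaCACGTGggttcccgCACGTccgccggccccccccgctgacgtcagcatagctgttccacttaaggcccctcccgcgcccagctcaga
The IDH1 window held 1 ARE match, at position -143 from the start, and 3 HIF core matches. GOT1 had 1 CARE match at -198, on the strand opposite to the gene, and 1 HIF core match. TKT and PGAM1 windows held none of these 4 motifs. Windows were not matched to the starts that the tags mark. By the build shift of GOT1 on the same chromosome, the PGAM1 window seems to lie inside the gene as annotated in GRCh37. It therefore does not describe the sequence before the 5′ end of that gene. Whether the IDH1, TKT and LDHA windows lie before the GRCh37 5′ ends of their genes was not tested. In LDHA there were 5 HIF core matches, 4 of them within its 2 E-boxes.

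Matches to the HIF core are common, those to the ARE and the E-box less so, and those to the CARE letters are rare. Per window, the HIF core was found in 54.2% of the 72 windows of these metabolic genes and in 57.1% of the 10968 windows of all tested genes. The ARE letters occurred in 12.5% of the metabolic windows and 12% of all, the CARE letters in 4.17% and 1.62%, and E-boxes in 8.33% and 8.56%. Per gene, the HIF core was found before 71.1% of the 45 metabolic genes that had a window and 67.5% of 7551 tested genes. In the same way the ARE stood before 20% and 16.1%, the CARE before 4.44% (GOT1 and HK1) and 2.19%, and E-boxes before 13.3% and 11.7%. For the HIF core and the E-box the direction thus depends on the unit counted. OGDH had no window, and several genes had more than 1. A match describes letters and does not show binding.

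Across the whole table, genes at least 1.3-fold from control on the log2(CPM + 1) scale were counted as higher or lower. With siRNA 1 higher than control were 2 of 46 metabolic genes (PFKM and PGAM1), against 7.76% of all tested genes. With siRNA 1 lower were 3 of 46 (IDH1, GOT1 and TKT), against 8.27% of all. With siRNA 2 none of the 46 was higher, against 4.26% of all, and 2 (IDH1 and GOT1) were lower, against 7.30% of all. These shares of the 46 came to 4.35%, 6.52%, 0% and 4.35%, each below that of all genes.

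In both siRNA libraries at once, none of the 46 was higher than control, against 2.78% of all genes, and IDH1 and GOT1 were lower, which is 4.35% of the 46 against 3.49% of all. With siRNA 1 against siRNA 2, none was at least 1.3-fold higher, against 4.01% of all, and ENO2 and IDH1 were lower, against 2.63% of all. A difference of at least 2-fold either way was found for IDH1 alone with siRNA 1 against control (0.89% of all genes), for none with siRNA 2 against control (0.463% of all) and for none with siRNA 1 against siRNA 2 (0.352% of all).

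Relative to control, somewhat larger shares of the 46 than of all genes lay within 1.3-fold, a gap of few genes. With siRNA 1, 41 of the 46 log2 ratios to control did (89.1%, against 84.0% of all genes), and with siRNA 2, 44 did (95.7%, against 88.4%). A minimum mean of 20 CPM kept 40 of the 46 and 6931 of all genes. With siRNA 1, 2 of the 40 were then higher and 3 lower, against 503 and 494 of all. With siRNA 2 none was higher and 2 were lower, against 264 and 425. Whether the gap goes with the level of these genes was not tested. The median log2 ratio to control of the 46 was 0.03 with siRNA 1 and 0.06 with siRNA 2, where the medians of all genes were -0.03 and -0.04. Between siRNA 1 and siRNA 2 the medians were 0.03 for the 46 and 0.02 for all genes, and the spread of the 46 was no narrower, with a median absolute log2 ratio of 0.124 for the 46 and 0.119 for all genes.

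The deposited scaling bears on the balance of higher and lower genes. Over all genes, 837 were higher and 892 lower with siRNA 1, but 965 and 747 after median-ratio scaling. With siRNA 2 they were 460 and 788, but 608 and 553. Between siRNA 1 and siRNA 2 they were 433 and 284, but 365 and 334. Among the 46, that scaling left every call in place and added LDHA to those higher with siRNA 1.

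An exact binomial test (two-sided) was also run on the recovered tags of all genes, with Benjamini-Hochberg adjustment. It compares libraries, not conditions, and asks only whether tag counts differ beyond counting error. With a threshold of 0.05 on the adjusted p, it called 18 of 46 higher (23.3% of all genes) and 12 lower (29.1% of all) with siRNA 1 against control. With siRNA 2 it called 13 higher (18.4% of all) and 12 lower (29.9% of all). With siRNA 1 against siRNA 2 it called 13 higher (21.4% of all) and 11 lower (15.4% of all). At this depth the test called differences such as that of LDHB between siRNA 1 and control (log2 -0.04), so its calls say little of size.

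**Figure D1:**
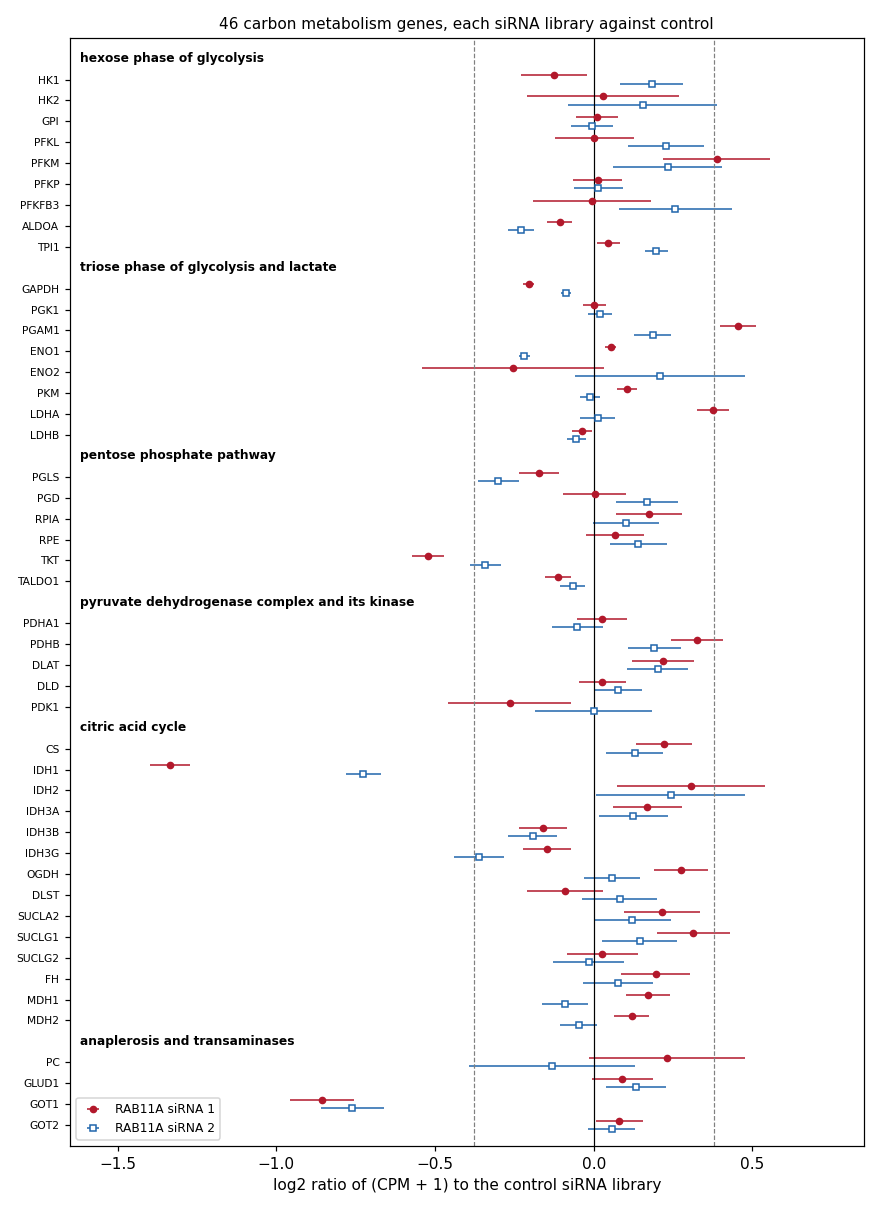
Log2 ratio of (CPM + 1) to the control library for each of the 46 genes, by pathway, with siRNA 1 as filled circles and siRNA 2 as open squares; bars are 95% counting intervals and dashed lines mark 1.3-fold. IDH1 and GOT1 lie left of the lower dashed line in both siRNA libraries, and 41 of 46 circles and 44 of 46 squares lie between the lines.

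The first phase of glycolysis traps glucose, isomerises it and splits the hexose. Hexokinase 1 (HK1), which phosphorylates glucose at the outer mitochondrial membrane, had 54.3 CPM with siRNA 1 and 67.5 CPM with siRNA 2, against 59.3 CPM in control. The inducible hexokinase HK2 had 9.16 CPM with siRNA 1 and 10.1 CPM with siRNA 2, against 8.96 CPM in control. HK1 thus lay below control in one siRNA library and above it in the other, and HK2 made up 14.4%, 13.0% and 13.1% of hexokinase tags with siRNA 1, siRNA 2 and control, with overlapping Wilson 95% intervals.

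Phosphofructokinase, the committed step of glycolysis, is built from 3 subunit genes. The muscle-type PFKM had 23.8 CPM with siRNA 1 (95% Poisson interval 21.9 to 25.8) and 21.3 CPM with siRNA 2 (19.5 to 23.2), against 18.0 CPM in control (16.3 to 19.7). Its log2 ratio to control was 0.39 ± 0.086 (counting SE) with siRNA 1 and 0.23 ± 0.088 with siRNA 2. The control value was the lowest of the 3, with an interval that meets that of siRNA 2. The liver-type PFKL had 39.1 CPM with siRNA 1 and 45.9 CPM with siRNA 2, against 39.0 CPM in control. The platelet-type PFKP, the most abundant of the 3, had 105 CPM with siRNA 1 and 105 CPM with siRNA 2, against 104 CPM in control. PFKM made up 14.2% of phosphofructokinase tags with siRNA 1 (Wilson 95% interval 13.1 to 15.3) and 12.3% with siRNA 2, against 11.1% in control (10.2 to 12.1).

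PFKFB3, which makes the fructose 2,6-bisphosphate that activates phosphofructokinase, had 16.4 CPM with siRNA 1 and 19.8 CPM with siRNA 2, against 16.4 CPM in control. Its log2 ratio of 0.26 ± 0.091 was the highest of the 46 with siRNA 2. Glucose-6-phosphate isomerase (GPI) was close to level, with 146 CPM with siRNA 1 and 145 CPM with siRNA 2, against 145 CPM in control. Aldolase A (ALDOA), which splits fructose 1,6-bisphosphate, had 385 CPM with siRNA 1 and 353 CPM with siRNA 2, against 415 CPM in control. Triosephosphate isomerase (TPI1), the most abundant gene of this phase, had 484 CPM with siRNA 1 and 537 CPM with siRNA 2, against 469 CPM in control. Together the 9 genes of this phase held 1263 CPM with siRNA 1 and 1305 CPM with siRNA 2, against 1275 CPM in control.

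The triose phase, in which ATP and pyruvate are made, held most of the tags of the group. Glyceraldehyde-3-phosphate dehydrogenase (GAPDH) had 2214 CPM with siRNA 1 and 2402 CPM with siRNA 2, against 2553 CPM in control, and ranked 25th among all entries in control. Enolase 1 (ENO1) had 2368 CPM with siRNA 1 and 1960 CPM with siRNA 2, against 2282 CPM in control. The order of these abundant genes changed between libraries, ENO1 standing above GAPDH with siRNA 1 and below it with siRNA 2 and in control. GAPDH was lower than control in both siRNA libraries, with log2 ratios of -0.21 ± 0.0084 and -0.09 ± 0.0082 for siRNA 1 and siRNA 2. For ENO1 they were 0.05 ± 0.0085 and -0.22 ± 0.0089, in opposite directions. The neuronal enolase ENO2 was scarce, with 5.04 CPM with siRNA 1 and 7.32 CPM with siRNA 2, against 6.20 CPM in control. Its log2 ratio of -0.46 ± 0.14 between siRNA 1 and siRNA 2 rests on 126 and 183 tags.

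PGAM1, which moves the phosphate of phosphoglycerate, had 229 CPM with siRNA 1 (95% Poisson interval 223 to 235) and 190.0 CPM with siRNA 2 (185 to 195), against 167 CPM in control (162 to 172). These intervals did not overlap. Its log2 ratio to control was 0.45 ± 0.029 with siRNA 1, the highest of the 46, and 0.19 ± 0.030 with siRNA 2. The gene lies at chr10:99185948-99193201 (plus strand, GRCh37), and of its 3 annotated transcript starts 1 also matched other places in the genome.

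LDHA, the lactate dehydrogenase subunit that favours lactate formation, had 271 CPM with siRNA 1 (265 to 278) and 211 CPM with siRNA 2 (205 to 217), against 209 CPM in control (203 to 215). Only the siRNA 1 library stood apart, at a log2 ratio of 0.38 ± 0.026 to control and 0.36 ± 0.026 to siRNA 2. On the unrounded scale the ratio to control fell just short of 1.3-fold. LDHB, the subunit of heart-type lactate dehydrogenase, had 666 CPM with siRNA 1 and 658 CPM with siRNA 2, against 684 CPM in control. LDHA accordingly made up 28.9% of lactate dehydrogenase tags with siRNA 1 (Wilson 95% interval 28.4 to 29.5) and 24.2% with siRNA 2 (23.7 to 24.8), against 23.4% in control (22.9 to 24.0). LDHA lies at chr11:18416107-18429972 (plus strand, GRCh37), and 3 of its 14 annotated starts had a copy elsewhere.

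Phosphoglycerate kinase (PGK1), the first ATP-yielding step, was near level at 462 CPM with siRNA 1 and 467 CPM with siRNA 2, against 461 CPM in control. Pyruvate kinase (PKM), whose M1 and M2 forms these values do not separate, had 702 CPM with siRNA 1 and 648 CPM with siRNA 2, against 653 CPM in control. The 8 genes of the triose phase summed to 6918 CPM with siRNA 1 and 6544 CPM with siRNA 2, against 7016 CPM in control. The 16 measured members of a list of enzymes known to be induced by the hypoxia factor HIF, nearly all of them glycolytic, had median log2 ratios to control of 0.01 and 0.02 for siRNA 1 and siRNA 2, where all genes had -0.03 and -0.04. PGAM1 was the 1 of the 16 past the threshold, higher with siRNA 1, against 7.76% of all genes higher and 8.27% lower.

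**Figure D2:**
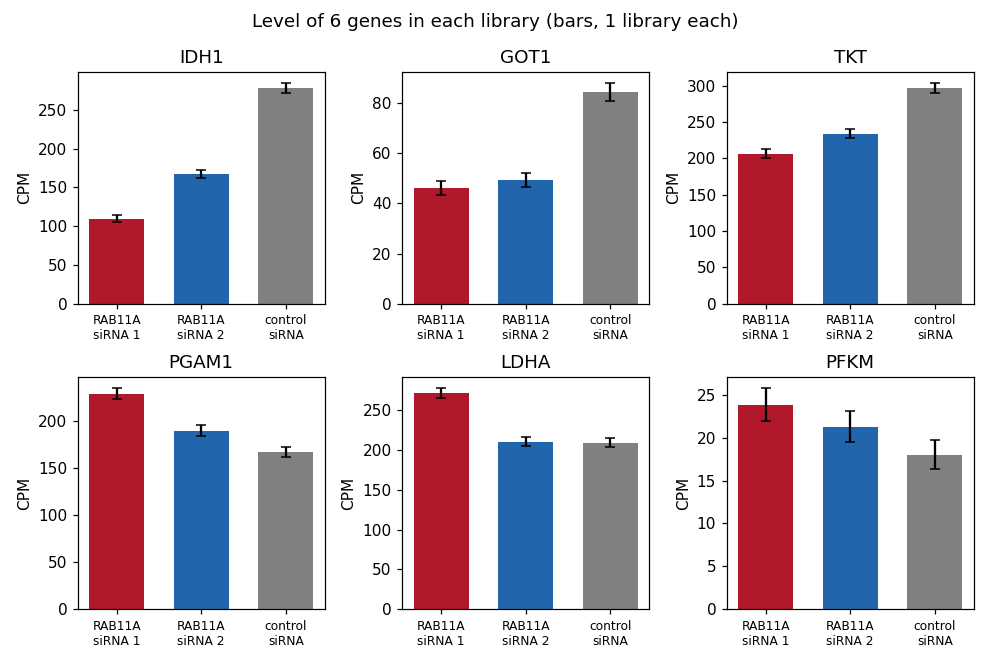
CPM of 6 genes in each library, 1 library per bar, with 95% Poisson intervals of the tag count. IDH1, GOT1 and TKT stand lower in both siRNA libraries than in control, PGAM1 and PFKM higher, and LDHA higher with siRNA 1 only.

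In the pentose phosphate pathway, TKT, which exchanges carbon units between sugar phosphates in the non-oxidative branch, stood apart. TKT had 207 CPM with siRNA 1 (95% Poisson interval 201 to 212) and 234 CPM with siRNA 2 (228 to 240), against 297 CPM in control (290.1 to 304). Its log2 ratio to control was -0.52 ± 0.026 with siRNA 1, and -0.34 ± 0.025 with siRNA 2, which is short of 1.3-fold. The 3 intervals did not overlap. TKT lies at chr3:53258728-53290068 (minus strand, GRCh37), and none of its annotated starts had a copy.

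Transaldolase (TALDO1), the partner of TKT in that branch and the most abundant gene of the pathway, had 379 CPM with siRNA 1 and 391 CPM with siRNA 2, against 410 CPM in control. The lactonase PGLS, of the oxidative branch, had 153 CPM with siRNA 1 and 140 CPM with siRNA 2, against 173 CPM in control. The NADPH-making 6-phosphogluconate dehydrogenase (PGD) had 62.8 CPM with siRNA 1 and 70.6 CPM with siRNA 2, against 62.7 CPM in control. None of these 3 passed 1.3-fold, and PGLS came nearest, at a log2 ratio of -0.30 ± 0.033 with siRNA 2. The pentose isomerase RPIA and epimerase RPE stood at 62.3 and 76.3 CPM with siRNA 1, 59.2 and 80.3 CPM with siRNA 2, and 55.1 and 72.8 CPM in control. The 6 genes summed to 940 CPM with siRNA 1 and 976 CPM with siRNA 2, against 1070 CPM in control. Without TKT the sums were 733 CPM with siRNA 1 and 742 CPM with siRNA 2, against 773 CPM in control.

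The pyruvate dehydrogenase complex, which makes acetyl-CoA from pyruvate, had no member past 1.3-fold. PDHB, the beta subunit of its first enzyme, had 105 CPM with siRNA 1 and 95.7 CPM with siRNA 2, against 83.7 CPM in control, a log2 ratio of 0.32 ± 0.042 with siRNA 1. DLAT, the acetyltransferase of the complex, had 71.8 CPM with siRNA 1 and 70.9 CPM with siRNA 2, against 61.6 CPM in control. Both thus stood above control in each siRNA library. DLD, the dihydrolipoamide dehydrogenase that other complexes share and the most abundant gene of the set, had 113 CPM with siRNA 1 and 117 CPM with siRNA 2, against 111 CPM in control. PDHA1, the alpha subunit, lay near control too, with a log2 ratio of 0.03 for siRNA 1 and of -0.05 for siRNA 2. PDK1, the kinase that switches the complex off, had 13.7 CPM with siRNA 1 and 16.6 CPM with siRNA 2, against 16.6 CPM in control. The 5 genes summed to 407 CPM with siRNA 1 and 398 CPM with siRNA 2, against 374 CPM in control.

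IDH1 gave the largest difference of the 46. It had 109.7 CPM with siRNA 1 (2742 tags, 95% Poisson interval 106 to 114) and 168 CPM with siRNA 2 (4192 tags, 163 to 173), against 278 CPM in control (6951 tags, 272 to 285). The intervals were far apart, and the siRNA 2 library lay between the others. Its log2 ratio to control was -1.33 ± 0.032 with siRNA 1 and -0.73 ± 0.028 with siRNA 2. The siRNA libraries also differed from each other, by a log2 ratio of -0.61 ± 0.035 for siRNA 1 against siRNA 2. IDH1 ranked 1837th of all entries with siRNA 1 and 1136th with siRNA 2, against 645th in control. The gene lies at chr2:209100953-209130798 (minus strand, GRCh37), and none of its annotated starts had a copy. IDH1-AS1, an RNA from the opposite strand near its start, stood at 2.24 CPM with siRNA 1 and 2.72 CPM with siRNA 2, against 3.04 CPM in control, and the table keeps the strands apart.

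The other isocitrate dehydrogenases did not share this difference. IDH2, the mitochondrial NADP-linked enzyme, had 10.9 CPM with siRNA 1 and 10.4 CPM with siRNA 2, against 8.64 CPM in control. IDH3A, IDH3B and IDH3G encode the NAD-linked enzyme of the cycle itself. IDH3A had 56.2 CPM with siRNA 1 and 54.5 CPM with siRNA 2, against 49.9 CPM in control. IDH3B had 99.96 CPM with siRNA 1 and 97.7 CPM with siRNA 2, against 112 CPM in control. IDH3G had 104 CPM with siRNA 1 and 89.4 CPM with siRNA 2, against 115 CPM in control. The catalytic IDH3A thus stood a little above control in both siRNA libraries and the regulatory IDH3B and IDH3G below it, with IDH3G at a log2 ratio of -0.36 ± 0.040 with siRNA 2, short of 1.3-fold. IDH1 made up 28.8% of the tags of the 5 isocitrate dehydrogenase genes with siRNA 1 (Wilson 95% interval 27.9 to 29.7) and 40.0% with siRNA 2 (39.0 to 40.9), against 49.3% in control (48.5 to 50.2).

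**Figure D3:**
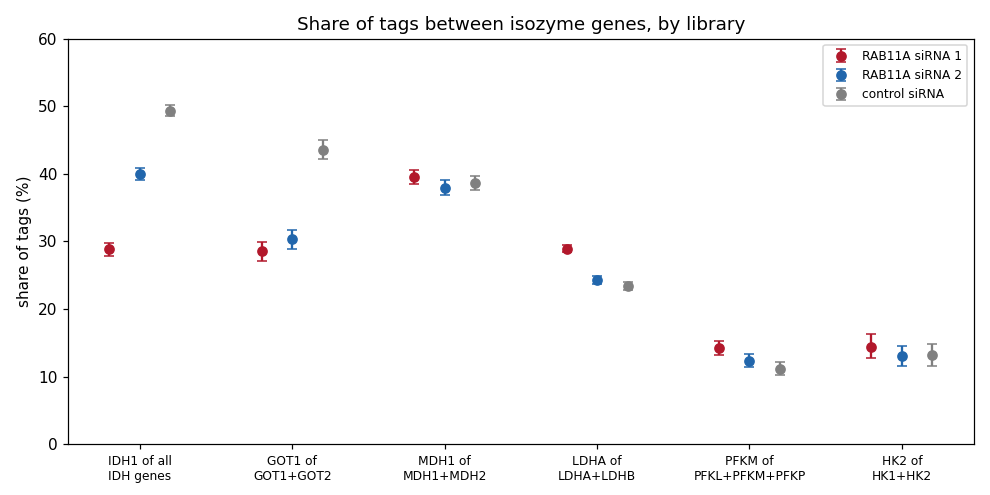
Share of tags (%) that 1 gene holds among its isozyme genes in each library, with Wilson 95% intervals for counting error. IDH1 held 28.8% and 40.0% with siRNA 1 and siRNA 2 against 49.3% in control, GOT1 28.5% and 30.3% against 43.6%, and LDHA 28.9% and 24.2% against 23.4%.

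The remaining citric acid cycle genes stayed within 1.3-fold of control. With siRNA 1, 10 of the 14 genes stood above control, with log2 ratios of up to 0.31, as did 4868 of all 10788 genes. With siRNA 2, 8 of the 14 did, as did 4462 of all genes. The highest ratio with siRNA 2 was that of IDH2, at 0.24 ± 0.12. With siRNA 1 it was that of SUCLG1, the alpha subunit of succinyl-CoA synthetase, at 0.314 ± 0.059, with IDH2 next at 0.306 ± 0.119. SUCLG1 had 51.4 CPM with siRNA 1 and 45.6 CPM with siRNA 2, against 41.2 CPM in control. Its GTP-forming partner SUCLG2 had 49.7 CPM with siRNA 1 and 48.2 CPM with siRNA 2, against 48.8 CPM in control. OGDH, the first enzyme of the oxoglutarate dehydrogenase complex, had 94.6 CPM with siRNA 1 and 81.2 CPM with siRNA 2, against 78.0 CPM in control. Citrate synthase (CS) had 87.4 CPM with siRNA 1 and 82.0 CPM with siRNA 2, against 74.9 CPM in control.

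Malate dehydrogenases interconvert malate and oxaloacetate. The cytosolic MDH1 had 139 CPM with siRNA 1 and 116 CPM with siRNA 2, against 123 CPM in control. The mitochondrial MDH2 had 213 CPM with siRNA 1 and 189 CPM with siRNA 2, against 196 CPM in control. Both stood above control with siRNA 1. With siRNA 2, MDH1 stood below control, while MDH2 had a log2 ratio of -0.05 ± 0.029 that became 0.0019 after median-ratio scaling. MDH1 held 39.5% and 38.0% of malate dehydrogenase tags with siRNA 1 and siRNA 2, against 38.7% in control. Of the others, SUCLA2, the ATP-forming subunit, and fumarase (FH) had positive log2 ratios of up to 0.21 in both siRNA libraries. DLST, of the oxoglutarate dehydrogenase complex, lay on either side of control, at a log2 ratio of -0.09 with siRNA 1 and of 0.08 with siRNA 2. The 14 genes summed to 1158 CPM with siRNA 1 and 1122 CPM with siRNA 2, against 1257 CPM in control. Without IDH1 the sums were 1048 CPM with siRNA 1 and 954 CPM with siRNA 2, against 979 CPM in control.

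GOT1, which interconverts aspartate and oxaloacetate in the cytosol and takes part in the malate-aspartate shuttle, differed almost equally with both siRNAs. GOT1 had 46.2 CPM with siRNA 1 (1154 tags, 95% Poisson interval 43.5 to 48.9) and 49.4 CPM with siRNA 2 (1234 tags, 46.6 to 52.2), against 84.4 CPM in control (2109 tags, 80.8 to 88.0). The siRNA libraries had overlapping intervals, and both lay well below control. Its log2 ratio to control was -0.86 ± 0.052 with siRNA 1 and -0.76 ± 0.051 with siRNA 2, and -0.09 ± 0.058 for siRNA 1 against siRNA 2. GOT1 lies at chr10:101156627-101190381 (minus strand, GRCh37), and none of its annotated starts had a copy.

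GOT2, the mitochondrial enzyme of the shuttle, had 116 CPM with siRNA 1 and 114 CPM with siRNA 2, against 109 CPM in control. GOT1 therefore held 28.5% of the tags of GOT1 and GOT2 together with siRNA 1 (Wilson 95% interval 27.2 to 29.9). With siRNA 2 the share was 30.3% (28.9 to 31.7), against 43.6% in control (42.2 to 45.0). Glutamate dehydrogenase (GLUD1), which feeds oxoglutarate into the cycle, had 70.0 CPM with siRNA 1 and 72.2 CPM with siRNA 2, against 65.7 CPM in control. Pyruvate carboxylase (PC), which makes oxaloacetate, had 9.24 CPM with siRNA 1 and 6.96 CPM with siRNA 2, against 7.72 CPM in control. Neither passed 1.3-fold on the log2(CPM + 1) scale in any pair of libraries, but PC did for siRNA 1 against siRNA 2 with a pseudocount of 0.5 CPM.

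All 46 genes together held 10926 CPM with siRNA 1 and 10587 CPM with siRNA 2, against 11259 CPM in control, or 1.09%, 1.06% and 1.13% of library tags. Over all entries the deposited values summed to 1008184 CPM with siRNA 1 and 1005499 CPM with siRNA 2, against 1006992 CPM in control, slightly above the library total, and how entries share tags is not stated, so sums and shares carry that uncertainty. GAPDH and ENO1 made up 4581, 4362 and 4835 CPM of these for siRNA 1, siRNA 2 and control. IDH1, GOT1 and TKT together held 362 CPM with siRNA 1 and 451 CPM with siRNA 2, against 659 CPM in control. Without GAPDH and ENO1, the other 44 genes held 6345 CPM with siRNA 1 and 6225 CPM with siRNA 2, against 6424 CPM in control.

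Some of these transcripts begin with a sequence that also matched other places in the genome. Of the 46 genes, 16 had at least 1 annotated start whose first 50 bases matched another place with at most 2 substitutions, among them GAPDH, ENO1, PGAM1, LDHA, PKM, ALDOA and TPI1, and 30 had none. The matched places numbered 23780 for SUCLA2 and 1664 for LDHA, and what kind of sequence they are was not tested. The sources used here do not say how tags with several matches were counted, so the levels of the 16 are uncertain to that extent. Entries for copies were looked up by name for ALDOA, TPI1, GAPDH, ENO1, LDHB and GLUD1 only, and they were low. The highest of these was LDHBP2, at 21.0 CPM with siRNA 1 and 19.6 CPM with siRNA 2, against 23.0 CPM in control. LDHBP2 is named as a copy of LDHB, which was among the 30 genes without a match, so the search can miss copies.

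Other genes of the same pathways were taken from 6 lists of 84 symbols, of which 50 entries passed 5 CPM. With siRNA 1, 1 of the 50 was at least 1.3-fold higher than control (2%) and 4 were lower (8%), against 7.76% and 8.27% of all genes. With siRNA 2, none was higher and 1 was lower (2%), against 4.26% and 7.30% of all. Between siRNA 1 and siRNA 2, none was higher and 2 were lower (SLC2A3 and ME1, 4%), against 4.01% and 2.63% of all. SHPK and SDHD each have 2 entries with equal values in these counts, and SLC25A10 has 2 entries.

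PCK2, the mitochondrial phosphoenolpyruvate carboxykinase, was the 1 of the 50 lower in both siRNA libraries, like GOT1, against 3.49% of all genes. It had 60.1 CPM with siRNA 1 and 66.6 CPM with siRNA 2, against 114.8 CPM in control, with log2 ratios of -0.92 ± 0.045 and -0.78 ± 0.044. The others lower with siRNA 1 were lower with that siRNA alone past the threshold. The cytosolic malic enzyme ME1, a source of NADPH, had 20.4 CPM with siRNA 1 and 30.0 CPM with siRNA 2, against 29.3 CPM in control. Its siRNA 2 library stood next to control, and its log2 ratio of siRNA 1 to siRNA 2 was -0.54 ± 0.079.

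Glucose and lactate carriers differed among themselves. SLC2A3, the high-affinity glucose transporter GLUT3, had 17.8 CPM with siRNA 1 and 32.0 CPM with siRNA 2, against 38.7 CPM in control. SLC2A1, the widespread transporter GLUT1, had 194 CPM with siRNA 1 and 187 CPM with siRNA 2, against 164 CPM in control. The lactate exporter SLC16A3 (MCT4) had 137 CPM with siRNA 1 and 169 CPM with siRNA 2, against 198 CPM in control. Past 1.3-fold were SLC2A3 and SLC16A3, both lower with siRNA 1, while SLC2A1 lay above control by a log2 ratio of 0.25 ± 0.030 with siRNA 1 and 0.19 ± 0.031 with siRNA 2. The 1 higher gene was PRPS1, which turns ribose phosphate into the nucleotide precursor PRPP, with 120.1 CPM with siRNA 1 and 107 CPM with siRNA 2, against 89.4 CPM in control. The mitochondrial pyruvate carrier gene MPC1 had 71.2 CPM with siRNA 1 and 78.4 CPM with siRNA 2, against 61.0 CPM in control, within 1.3-fold.

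**Figure D4:**
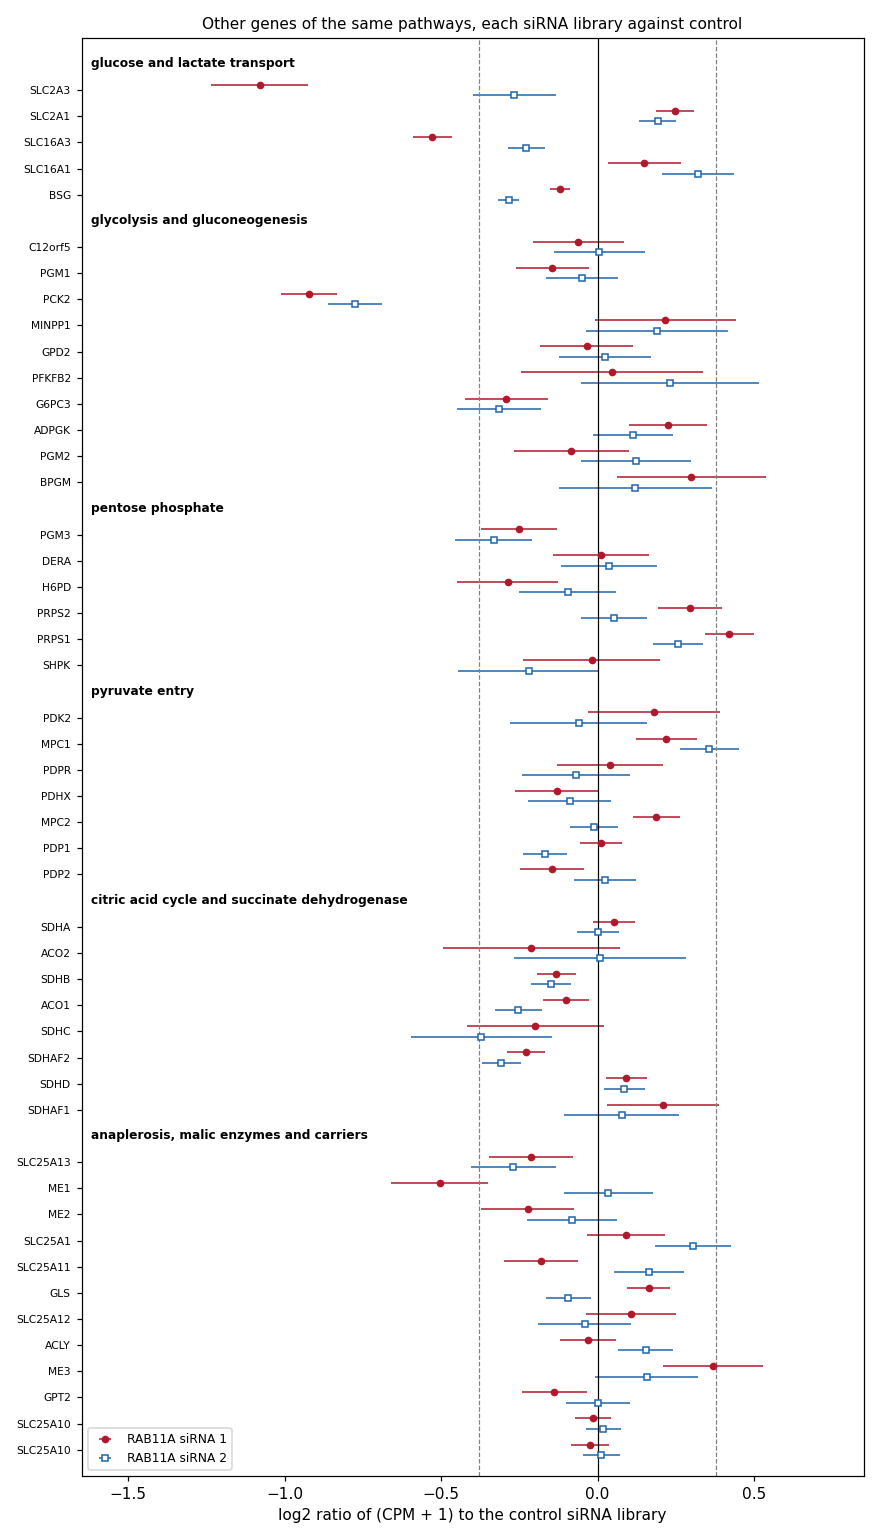
Log2 ratio of (CPM + 1) to the control library for the other genes of these pathways with a mean of at least 5 CPM, by list, with siRNA 1 as filled circles and siRNA 2 as open squares; bars are 95% counting intervals and dashed lines mark 1.3-fold. PCK2 lies left of the lower dashed line with both siRNAs, and SLC2A3, SLC16A3 and ME1 with siRNA 1 only.

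Of 5 NADPH-related enzymes known as targets of the antioxidant factor NRF2 (PGD, TKT, TALDO1, IDH1 and ME1), 3 were lower with siRNA 1 (IDH1, TKT and ME1) and 1 with siRNA 2 (IDH1), where 8.27% of all tested genes were lower with siRNA 1 and 7.30% with siRNA 2. Their median log2 ratio to control was -0.51 with siRNA 1 and -0.07 with siRNA 2, where all genes had -0.03 and -0.04. PGD and TALDO1 were within 1.3-fold in both. The gene for NRF2 itself, NFE2L2, had 62.1 CPM with siRNA 1 and 63.7 CPM with siRNA 2, against 76.4 CPM in control, and that for its inhibitor KEAP1 had 44.0 CPM with siRNA 1 and 48.5 CPM with siRNA 2, against 47.9 CPM in control, both within 1.3-fold.

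Among 15 genes for regulators of these pathways, 12 passed 5 CPM. The hypoxia factor gene HIF1A had 195 CPM with siRNA 1 and 189 CPM with siRNA 2, against 180 CPM in control. EPAS1, which encodes HIF-2α, had 6.16 CPM with siRNA 1 and 7.28 CPM with siRNA 2, against 19.1 CPM in control. VHL, which marks HIF proteins for breakdown, had 234 CPM with siRNA 1 and 231 CPM with siRNA 2, against 308 CPM in control. EPAS1 and VHL, 2 of the 12, were past 1.3-fold lower in both siRNA libraries, against 3.49% of all genes. EGLN3, a prolyl hydroxylase of HIF, had 115 CPM with siRNA 1 and 104 CPM with siRNA 2, against 85.5 CPM in control, and was the 1 of the 12 past the threshold higher with siRNA 1, against 7.76% of all genes. MYC, a driver of glycolytic genes, had 167 CPM with siRNA 1 and 156 CPM with siRNA 2, against 172 CPM in control.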

How the data were processed

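CAGE libraries of EBC-1 cells, 1 per siRNA, had been summarised by the authors in 1 deposited table, in CPM for each gene on its strand. The submitters' processing notes name hg19, BWA and HISAT2. Not given in the sources used here are their roles, the tool that counted tags, the release of the annotation, the treatment of tags with several matches, and whether each tag is a separate molecule. Deposited CPM values were whole multiples of about 0.04 for 100.0% of values within 0.005 CPM, which gave about 24999950 tags per library; a mean of 5 CPM is 125 tags.

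The measure was the log2 ratio of (CPM + 1), which understates low genes, over 10788 entries with a mean of at least 5 CPM, called at 1.3-fold; 2-fold was also counted. No p-value is given for a condition. Intervals are exact Poisson, or Wilson for shares. Alternatives were a pseudocount of 0.5 or 5 CPM, a minimum mean of 1 or 20 CPM or none, 1.5-fold, median-ratio and TMM scaling (edgeR 4.0.16 in R 4.3.3), the exact binomial test of recovered tags, and leaving out members with copies. Counts over both siRNA libraries under these were added after seeing the data. The ratio and the binomial test were tested on simulated tags. Copies of the first 50 bases of GENCODE transcripts, with at most 2 substitutions, were sought in GRCh37, and promoters came from RefSeq.

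The members and lists were chosen with earlier results of these data known. Every member is named; values in full go to those called with both siRNAs, to the 4 highest and 4 lowest ratios of each pair of libraries, to their isozymes and to the most abundant gene of each group. Others named, and the lists of the closing section, were chosen after values were seen. A few genes of the lists of other pathway genes, regulators and side branches are not reported here and are left out of those lists' counts and medians. Work was done in Python 3.11.15 (scipy 1.17.1, pandas 2.3.3, numpy 2.4.6 and matplotlib 3.10.9).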

Additional observations from a re-analysis of the deposited data

How the results depend on the processing

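Of the 46 genes, IDH1 and GOT1 were lower than control in both siRNA libraries under every alternative listed in the methods. No called ratio changed sign. TKT lower with siRNA 1 was lost only at 1.5-fold, where 275 of all genes were lower, against 892 at 1.3-fold. The binomial test, which reads counting error alone, called many more: 18 higher and 12 lower with siRNA 1, and 13 and 12 with siRNA 2. Of all genes it called 23.3% higher and 29.1% lower with siRNA 1, and 18.4% and 29.9% with siRNA 2. With siRNA 1 against siRNA 2 it called 13 and 11, against 21.4% and 15.4% of all genes. In both siRNA libraries at once it called 7 and 10. The share of all genes was not counted for these, so they cannot be read as many or few. In the main setting 2 of the 46 and 837 of all genes were higher with siRNA 1. The count of the 46 was 1 (PGAM1) with a pseudocount of 5 CPM, where 607 of all genes were higher. It was 0 at 1.5-fold, where 301 of all genes were higher, and 1 (PFKM) without genes that have copies. The count lower with siRNA 1 against siRNA 2 was 1 (IDH1) with a pseudocount of 5 CPM, where 158 of all genes were lower. It was also 1 (IDH1) with a minimum mean of 20 CPM (40 genes kept, 134 of all 6931 lower) and at 1.5-fold (75 of all). The same held with no genes with copies, and 284 of all genes were lower in the main setting. The count higher in that pair was 1 (PC) with a pseudocount of 0.5 CPM, where 480 of all genes were higher, against 433 in the main setting. TMM and median-ratio scaling gave 3 higher with siRNA 1, LDHA being added, and 965 of all genes higher. They moved the median of all genes by less than 0.1. Depth limits a gene at 0 tags to at most 0.12 CPM (3 tags). No paired analysis was possible because each group has 1 library.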

Other observations

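Side branches of sugar metabolism held a few larger differences. In the hexosamine pathway, GFPT1, the enzyme that draws fructose 6-phosphate and glutamine into it, had 102 CPM with siRNA 1 and 116 CPM with siRNA 2, against 196 CPM in control. Its log2 ratios to control were -0.94 ± 0.035 with siRNA 1 and -0.75 ± 0.034 with siRNA 2. It was the 1 of 10 tested genes of that pathway past 1.3-fold with either siRNA. Fructose, galactose and mannose entry had 12 tested entries, of which GALT gave 2 with equal values. Of the 12, MPI and PMM1, which handle mannose phosphates, were lower with both siRNAs. GMPPA was lower with siRNA 1, and AKR1B1 was higher with siRNA 2. MPI had 35.2 CPM with siRNA 1 and 36.6 CPM with siRNA 2, against 48.5 CPM in control. The galactokinase gene GALK1 was higher with both, with 15.7 CPM with siRNA 1 and 15.5 CPM with siRNA 2, against 10.1 CPM in control. The glycogen list of 14 tested genes had PPP1R3B, a glycogen-targeting phosphatase subunit, lower with both siRNAs, and GBE1, the branching enzyme, lower with siRNA 1. Of all genes tested, 2.78% were higher and 3.49% lower with both siRNAs. The shares for each siRNA close the next paragraph.

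Serine, glycine and one-carbon genes, which take carbon from 3-phosphoglycerate, were mixed. Of 11 tested, TYMS and SHMT1 were higher with both siRNAs. TYMS, the thymidylate synthase, had 285 CPM with siRNA 1 and 246 CPM with siRNA 2, against 176 CPM in control. PHGDH, which opens serine synthesis, had 141 CPM with siRNA 1 and 111 CPM with siRNA 2, against 179 CPM in control, and passed 1.3-fold with siRNA 2. MTHFD2 and MTHFD1L, mitochondrial folate enzymes, were also lower past it with siRNA 2, and ALDH1L2 was lower with siRNA 1. In all genes tested the shares were 7.76% higher and 8.27% lower with siRNA 1, and 4.26% higher and 7.30% lower with siRNA 2. With both siRNAs at once they were 2.78% higher and 3.49% lower. With a mean below 5 CPM, and so not among the tested genes, the hexokinase-like HKDC1 had 0.12 CPM with siRNA 1 and 1.16 CPM with siRNA 2, against 5.32 CPM in control.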
